A study of Bos taurus with 12 samples.

Results

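The genes described here are 8 members of the system that draws neutrophils into tissue: the CXC chemokines CXCL2, CXCL3, CXCL5 and CXCL8, their receptors CXCR1 and CXCR2, the neutrophil growth factor CSF3 and its receptor CSF3R. They were found on the array through the RefSeq accession that the files give for each probe. Of the 8, 7 were matched, by 10 of the 43653 probes. No probe carried an accession of CSF3R, which was not analysed here. CXCL2 (NM_174299), CXCL3 (NM_001046513), CXCL5 (NM_174300), CXCR2 (NM_001101285) and CSF3 (NM_174028) had 1 probe each, CXCL8 (NM_173925) had 3 and CXCR1 (NM_174360) had 2. Where a gene had several probes, the brightest stands for it.

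RNA came from mammary gland (MG) biopsies of 12 multiparous Holstein cows in early lactation (24 ± 3 days in milk), with 1 cow per array. The 6 control cows (CONT) kept the lactation ration. The 6 restricted cows (REST) were fed for 4 days a ration in which barley straw made up 48% of dry matter. All 12 cows received 50 µg of Escherichia coli lipopolysaccharide (LPS, the outer-membrane component that stands in for bacterial infection) into 1 healthy rear gland on day 3 of the diets, and tissue was taken 24 h later. No unchallenged gland was measured, so that the comparison is of the diets within challenged tissue and gives no change upon LPS. A biopsy holds epithelium, stroma and any leukocytes that have entered, and in such bulk RNA fewer cells of a type and less RNA per cell cannot be told apart.

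Neutrophils are the first leukocytes to enter a mammary gland exposed to bacterial products. Epithelial cells, macrophages and endothelium release CXC chemokines of the ELR type (named for the glutamate, leucine and arginine before the first cysteines), which bind the G protein-coupled receptors CXCR1 and CXCR2 on neutrophils and direct their movement. CSF3, also called G-CSF, raises neutrophil production in bone marrow and prolongs neutrophil life in tissue through CSF3R. In the bovine RefSeq annotation (ARS-UCD2.0), CXCL8, CXCL5, PPBP, CXCL2, CXCL3 and GRO1 lie in that order on 1 chromosome, with 1 other coding gene between CXCL8 and CXCL5 and 1 between PPBP and CXCL2, and CXCR2 and CXCR1 are adjacent on another. GRO1 is the table's symbol for the gene otherwise called CXCL1. Members of both clusters are close paralogs. How far each probe reads only its own gene was not checked, because the files used here hold no probe sequences.

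Values are log2 signals relative to the 75th percentile of the array, so that 0 is a probe as bright as that percentile. The 75th percentile of intensity was 577 to 1184 in CONT and 387 to 1082 in REST, with the lowest value in REST cow 2. Between 57.6 and 78.1% of probes were well above background, the call of the image software. The arrays lay on 3 slides of 4. Slide 1 held CONT cows 2, 4 and 5 with REST cow 1, slide 2 held CONT cow 1 with REST cows 2, 4 and 5, and slide 3 held CONT cows 3 and 6 with REST cows 3 and 6. All 14 matched markers of secretory epithelium were well above background on the 12 arrays. Of the 29 matched neutrophil markers, 21 were. REST cow 2 stood apart for several of the genes below, and values without that cow are given for the members and for part of the list values.

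None of the 7 genes differed between REST and CONT beyond the spread between cows. No member probe passed a Benjamini-Hochberg adjusted p of 0.05 in limma (0.9999 for all 10), and none had an unadjusted p under 0.05. Over all probes tested, the share called was 0% after adjustment and 2.62% (1143 probes) without it. The mean was lower in REST for 6 of the 7 genes and 9 of the 10 probes, where 53.9% of all probes were lower. The exception was CSF3, whose mean was higher. The 2 diets overlapped at all 10 member probes, and probes without overlap made up 0.128% of the array. The median REST minus CONT difference over the 7 genes was -0.19, against -0.03 over the 12639 named genes. With slide as a block these medians were -0.03 and 0.01, and without REST cow 2 they were -0.15 and -0.03. Without REST cow 2, 4 of the 7 genes were lower in REST, and likewise 4 with slide as a block in the model.

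**Figure D1:**
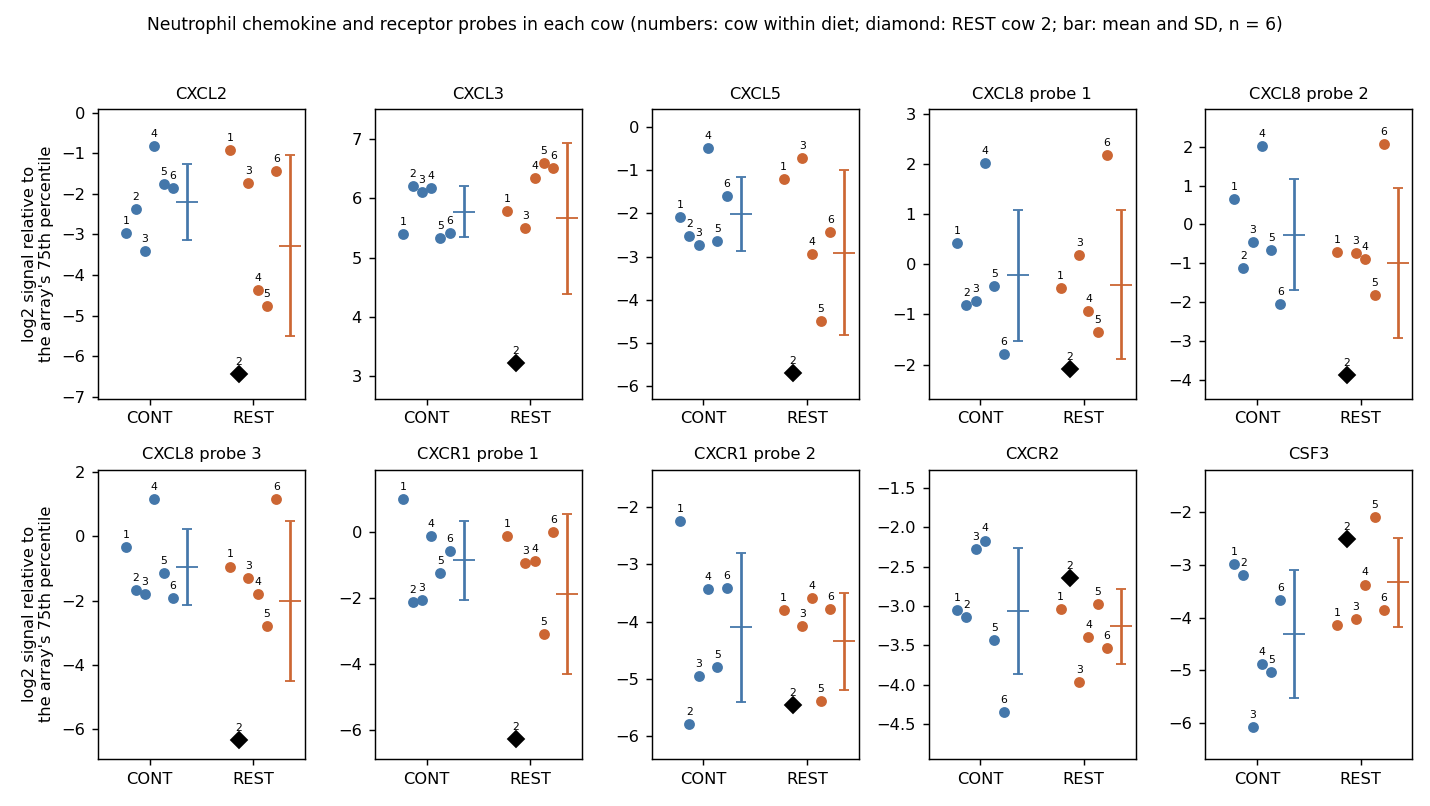
Log2 signal relative to the array's 75th percentile (vertical axes, a separate scale in each panel) of the 10 member probes in each CONT and REST cow, with the mean and SD of 6 cows beside the points. REST cow 2, the black diamond, is the lowest cow at 7 of the 10 probes, while at CXCR2 and CSF3 it lies in the upper part of the range.

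CXCL2, a ligand of CXCR2, ranged in CONT from -3.41 (cow 3) through a median of -2.11 to -0.82 (cow 4). In REST it ranged from -6.44 (cow 2) through a median of -3.05 to -0.92 (cow 1). REST cows 2, 4 and 5 were below every CONT cow, and cows 1, 3 and 6 lay within the CONT range. The means were -2.20 ± 0.93 (SD, n = 6) and -3.28 ± 2.22 (SD, n = 6). The log2 fold change (FC) of REST over CONT was -1.08 (SE 0.88; 95% confidence interval -2.99 to 0.84), and the two-sided exact permutation test over the 924 splits of the cows gave p = 0.307. The 3 low REST cows are the 3 that share slide 2. The log2 FC was -0.44 without REST cow 2 and -0.03 with slide as a block. The probe was well above background in 6 CONT cows and 3 REST cows, so that levels in the other 3 are near background, and the highest cow was at least 14.4-fold above the lowest.

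CXCL5, which attracts neutrophils through CXCR2 and is made largely by epithelium, showed the same ordering of the lowest cows. It lay between -2.74 (cow 3) and -0.49 (cow 4) in CONT, with a median of -2.30. In REST it lay between -5.69 (cow 2) and -0.71 (cow 3), with a median of -2.69. REST cows 2 and 5 were the 2 lowest of all 12, as for CXCL2, and CONT cow 4 was the highest for both genes. REST over CONT gave a log2 FC of -0.90 (SE 0.77; interval -2.57 to 0.77; exact permutation p = 0.325). It was -0.34 without REST cow 2 and -0.25 with slide as a block. The highest cow was at least 18.2-fold above the lowest, which was not well above background.

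CXCL3, another CXCR2 ligand, was well above background in all 12 cows. In CONT it spanned 5.33 (cow 5) to 6.21 (cow 2) with a median of 5.76, and in REST 3.22 (cow 2) to 6.60 (cow 5) with a median of 6.07. A single cow set the REST spread: REST cow 2 was 2.11 below the next cow, and the REST SD was 1.27 with it and 0.48 without it, against 0.43 in CONT. REST cows 4, 5 and 6 were above every CONT cow. Over all cows the log2 FC was -0.11 (SE 0.50; interval -1.19 to 0.98; exact permutation p = 0.918), and it became 0.38 (SE 0.27; interval -0.21 to 0.97) without REST cow 2. REST cow 5, second lowest for CXCL2 and CXCL5, was the highest cow for CXCL3.

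CXCL8, or interleukin-8, binds both CXCR1 and CXCR2 and is the chemokine most often followed in mastitis. By its brightest probe it spanned -1.80 (cow 6) to 2.03 (cow 4) in CONT, with a median of -0.59. In REST it spanned -2.08 (cow 2) to 2.19 (cow 6), with a median of -0.70. In each diet 1 cow stood near 2 and the others were at or below 0.42, so that the highest signal was 19.2-fold the lowest, all 12 being well above background. The log2 FC was -0.19 (SE 0.73; interval -1.77 to 1.39; exact permutation p = 0.81). It was 0.15 without REST cow 2 and 0.20 with slide as a block.

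The 3 CXCL8 probes varied together, with Pearson's r of 0.951, 0.861 and 0.949 over the 12 cows as a description. They placed REST cow 2 at different distances. The other 2 probes gave log2 FC of -0.73 (SE 0.88) and -1.04 (SE 1.01), which became -0.15 and -0.18 without that cow. The third probe read REST cow 2 at -6.31, not well above background, and had a range over the cows of at least 57.1-fold.

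CXCR1, the receptor for CXCL8 on neutrophils, ranged in CONT from -2.14 (cow 2) through a median of -0.93 to 0.97 (cow 1). In REST it ranged from -6.26 (cow 2) through a median of -0.92 to -0.03 (cow 6). The medians of the 2 diets lay close together, and REST cows 2 and 5 were the only REST cows below the CONT range. CXCR1 had a log2 FC of -1.03 (SE 0.99; interval -3.16 to 1.11; exact permutation p = 0.418). It was -0.15 without REST cow 2 and -0.67 with slide as a block. The highest cow was at least 49.9-fold above the lowest, REST cow 2, in which the probe was not well above background. The second CXCR1 probe was dim, well above background in 2 CONT and 3 REST cows, with a log2 FC of -0.24 (SE 0.57), and -0.02 without REST cow 2.

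CXCR2, the receptor shared by all the ELR chemokines, varied least among the members over all cows, whereas CXCL3 did without REST cow 2. It spanned -4.34 (cow 6) to -2.17 (cow 4) in CONT and -3.97 (cow 3) to -2.64 (cow 2) in REST, with medians of -3.10 and -3.22. REST cow 2, the lowest cow for CXCR1, was the highest REST cow for CXCR2. Its log2 FC was -0.19 (SE 0.35; interval -0.96 to 0.58; exact permutation p = 0.639). It was -0.32 without REST cow 2. The probe was well above background in all 12 cows and the highest cow was 4.51-fold above the lowest.

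CSF3 was the 1 member with a higher mean in REST. CONT cows ran from -6.08 (cow 3) through a median of -4.28 to -2.99 (cow 1), and REST cows from -4.15 (cow 1) through a median of -3.62 to -2.10 (cow 5). All 6 REST cows were above the CONT mean of -4.31, and 2 of them, cows 5 and 2, were above every CONT cow. The log2 FC was 0.97 (SE 0.55; interval -0.22 to 2.17), a ratio of 1.96, and the exact permutation p of 0.141 was the lowest over the member probes. The probe was well above background in 3 CONT and 5 REST cows. The log2 FC fell to 0.54 with slide as a block and to 0.24 with a background correction that lifts dim signals. It was 1.24 without CONT cow 1, 0.62 without CONT cow 3 and 0.81 without REST cow 2.

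**Figure D2:**
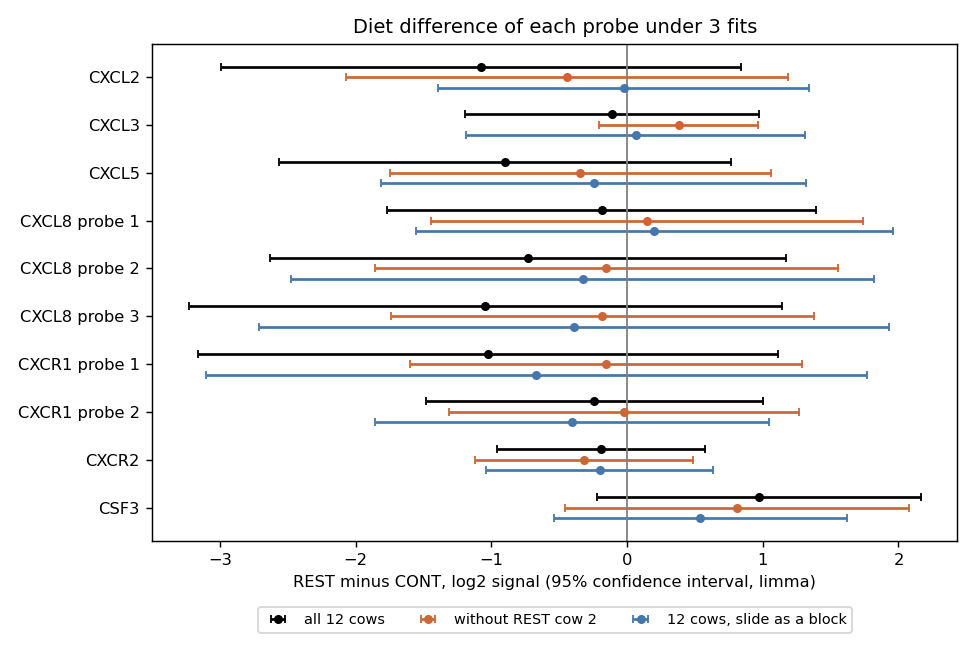
REST minus CONT difference in log2 signal (horizontal axis) of each member probe with its 95% confidence interval from limma, over all 12 cows, without REST cow 2, and with slide as a block. Every interval includes 0, and the points for CXCL2, CXCL3, CXCL5, CXCL8 and CXCR1 lie nearer to or beyond 0 on the right once REST cow 2 is left out.

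Diet and slide were unequally combined, 3 of the 4 arrays of slide 2 being REST, and the differences were not alike within slides. CXCL2 was higher in REST by 0.73 on slide 1 and 1.05 on slide 3, and lower on slide 2, with a difference of -2.21. CXCL5 gave 0.68, 0.60 and -2.30 on the same slides, and CXCR1 gave 1.04, 0.83 and -4.38. The CXCR1 value on slide 2 set REST cows 2, 4 and 5 against CONT cow 1, the highest of the 12. For CXCL8 the within-slide differences were -0.73, -1.87 and 2.45 on slides 1, 2 and 3. Each rests on 4 cows and was not tested. CSF3 was higher in REST on all 3 slides, by 0.22, 0.33 and 0.94.

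CXCL2, CXCL5, CXCL8 and CXCR1 were among the probes that varied most between cows of a diet. The pooled within-diet SD was 1.70 for CXCL2, 1.48 for CXCL5, 1.40 for CXCL8 and 1.90 for CXCR1. Of the 24086 probes that cleared background in all cows, 0.407% had a larger SD than CXCL2, 0.768% than CXCL5, 1.04% than CXCL8 and 0.174% than CXCR1. CXCL2, CXCL5 and CXCR1 were not well above background in every cow, and SD rises as signals near background. CXCL3 had an SD of 0.95, with 4.24% of those probes above it. CSF3 had 1.05, with 3.11% above it. CXCR2 had an SD of 0.66, which 13.3% exceeded. Without REST cow 2 the SD fell to 0.45 for CXCL3 (28.8% of probes above it) and to 1.22 for CXCR1 (1.39%). It was then 1.37 for CXCL2 (0.795%), 1.18 for CXCL5 (1.56%), 1.35 for CXCL8 (0.899%), 1.06 for CSF3 (2.42%) and 0.65 for CXCR2 (11.7%). The difference in spread between REST and CONT was not tested.

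CXCL2, CXCL5 and CXCR1 varied together across cows. Pearson's r and Spearman's rho were computed for 28 pairs, made of the 7 genes and the mean log2 signal of the 29 neutrophil markers, none of which is a member. All 28 share the scaling of their array. CXCL2 and CXCL5 had r = 0.902 (permutation p = 8e-05, adjusted over the 28 pairs 0.00224) and rho = 0.874 (permutation p = 0.00044, adjusted 0.00728). Without REST cows 2 and 5, the cows farthest from the CXCL2 median, r was 0.704, and it was 0.750 in CONT and 0.918 in REST. CXCR1 followed both, with r = 0.829 to CXCL5 (permutation p = 0.00147, adjusted 0.0103; rho = 0.692, permutation p = 0.0163, adjusted 0.0807) and r = 0.784 to CXCL2 (permutation p = 0.00382, adjusted 0.0214; rho = 0.643, permutation p = 0.0282, adjusted 0.0862). Without the same 2 cows those r were 0.384 and 0.279, so that the size of both rests on them. Without REST cow 2 alone they were 0.642 and 0.543, and with diet and slide removed from all 12 cows 0.843 and 0.950. REST cow 2 was not well above background for CXCL2, CXCL5 or CXCR1, and CXCL2 was so in only 3 REST cows. The values over 12 cows include these signals near background.

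**Figure D3:**
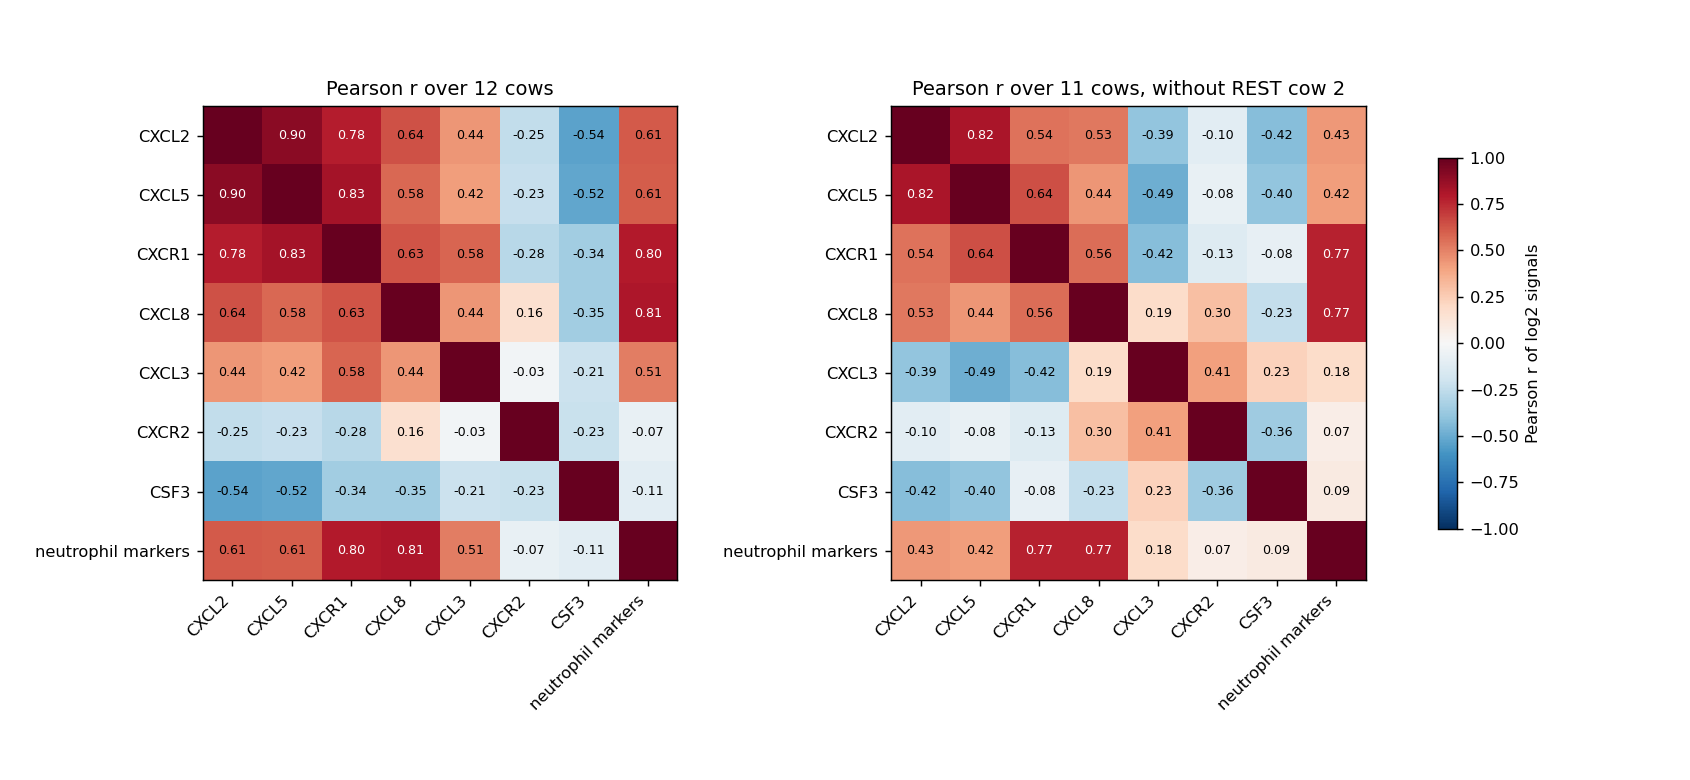
Pearson's r of log2 signal (colour and number in each cell) between the 7 genes and the mean of 29 neutrophil markers, over 12 cows on the left and without REST cow 2 on the right. CXCL2 and CXCL5 stay at 0.82 without that cow, CXCR1 and CXCL8 stay at 0.77 with the neutrophil markers, and the r of CXCL3 with CXCL2, CXCL5 and CXCR1 changes sign.

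CXCL8 had r = 0.635 to CXCL2 (rho = 0.727), 0.632 to CXCR1 (rho = 0.713) and 0.577 to CXCL5 (rho = 0.622). None of these passed adjustment (permutation p = 0.0274, 0.0286 and 0.0486 for r, adjusted 0.107, 0.107 and 0.136, and 0.00973, 0.0112 and 0.0339 for rho, adjusted 0.0784, 0.0784 and 0.0862). CXCL3 did not order the cows as its neighbours did. Its r with CXCL2 was 0.444 (rho = 0.042) over 12 cows and -0.39 without REST cow 2, and with CXCL5 it was 0.416 (rho = -0.084) and -0.49. Neither r passed adjustment (permutation p = 0.141 and 0.182, adjusted 0.264 and 0.299), nor did either rho (permutation p = 0.904 and 0.800, adjusted 0.937 and 0.933). CXCR2 did not follow CXCR1: r was -0.281 (permutation p = 0.373, adjusted 0.522) and rho -0.231 (permutation p = 0.470, adjusted 0.798). CSF3 ran against CXCL2 with r = -0.539 (permutation p = 0.0714, adjusted 0.162) and rho = -0.629 (permutation p = 0.0325, adjusted 0.0862). Within REST r was -0.882 and within CONT 0.010, and it was -0.138 over all cows without REST cows 2 and 5. With diet and slide removed it was 0.098. The difference between the diets in r was not tested.

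The r of CXCR1 and of CXCL8 with the level of neutrophil marker genes passed adjustment, and those of CXCL2 and CXCL5 did not. By rho only CXCR1 passed among these genes. Differences between these correlations were not tested. Some markers, such as LTF, are also made by epithelium. Of the 29, 21 were well above background in all 12 cows, and CD177 was in none, so that the mean includes dim signals. CATHL1 and CATHL4, well above background in 4 cows each, were highest in CONT cow 4 (-1.44 and -1.02, CONT medians -5.41 and -6.47). The mean log2 signal of the 29 neutrophil markers was -1.39 to -0.34 in CONT (median -1.20) and -1.73 to 0.01 in REST (median -0.81). REST cow 2 had the lowest level and REST cow 6 the highest. CXCR1 had r = 0.795 to this level (permutation p = 0.00072, adjusted 0.00765; rho = 0.874, permutation p = 0.00052, adjusted 0.00728), and r = 0.799 without REST cows 2 and 5. CXCL8 had r = 0.812 (permutation p = 0.00082, adjusted 0.00765; rho = 0.678, permutation p = 0.0189, adjusted 0.0807), and r = 0.630 without CONT cow 4 and REST cow 6, which are farthest from its median. CXCL2 had r = 0.615 (permutation p = 0.0333, adjusted 0.107; rho = 0.671, permutation p = 0.0202, adjusted 0.0807) and CXCL5 r = 0.606 (permutation p = 0.0345, adjusted 0.107; rho = 0.657, permutation p = 0.0237, adjusted 0.0831). Without REST cows 2 and 5 these were 0.351 and 0.330. With diet and slide removed, r was 0.886 for CXCR1, 0.825 for CXCL8, 0.877 for CXCL2 and 0.714 for CXCL5. CXCR2, also a neutrophil receptor, had r = -0.075 (permutation p = 0.815, adjusted 0.845) and rho = -0.161 (permutation p = 0.621, adjusted 0.915), and CSF3 had r = -0.109 (permutation p = 0.739, adjusted 0.796) and rho = -0.112 (permutation p = 0.734, adjusted 0.933).

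**Figure D4:**
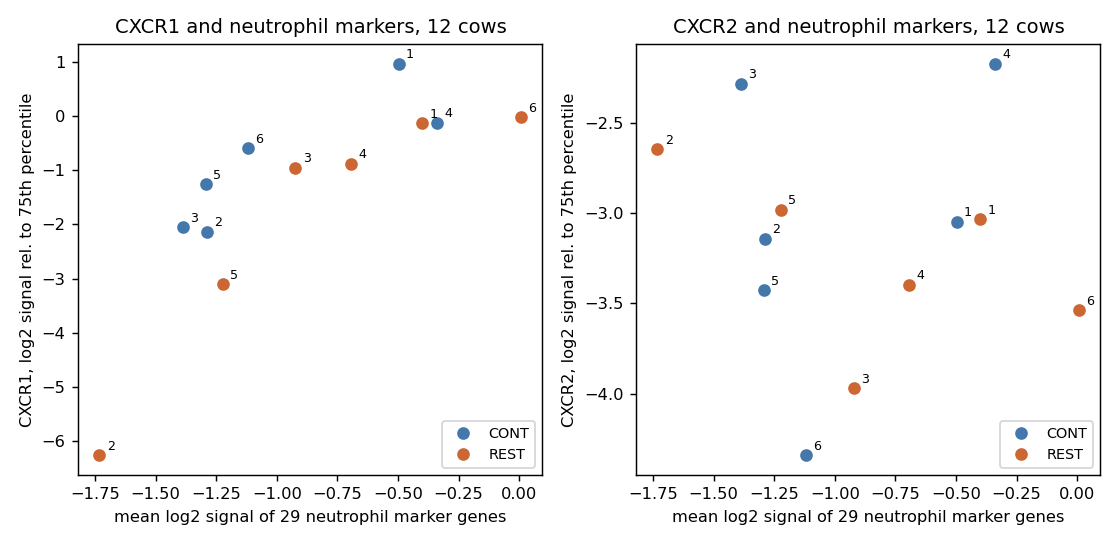
Log2 signal of CXCR1 (left) and CXCR2 (right) against the mean log2 signal of 29 neutrophil marker genes in each cow, numbered within its diet. CXCR1 rises with the markers from REST cow 2 at the lower left, with an r of 0.795, whereas CXCR2 shows no such relation, with an r of -0.075.

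In REST cow 2 the low chemokines and CXCR1 went with a low mean of the neutrophil markers, which did not all move one way. S100A8, a calcium-binding protein that fills the neutrophil cytoplasm, was -0.71 in that cow and 1.22 to 5.47 in the other 11. S100A9, its partner, was -2.19, and S100A12 was 1.60, each the lowest of the 12 cows. The markers in this paragraph are named after their values were seen. Of the 29 neutrophil markers, 11 (37.9%) were lowest in REST cow 2, against 16.8% of the named genes. Another 2, NCF1 of the oxidase (2.28) and the granule protease ELANE (0.71), were highest there, and TREM1 (5.20) and G0S2 (3.28) were second highest. LTF, which was saturated on 5 arrays, made up 75.2 to 90.5% of the summed signal of the list. Without LTF the log2 summed signal was 6.02 in that cow, 6.18 to 7.80 in CONT and up to 8.07 in REST. By count, 6 of 10 macrophage markers, 6 of 8 fibroblast markers and 14 of 30 genes of LPS and cytokine signals were also lowest there. Of the epithelial markers 2 of 14 were, and no endothelial, myoepithelial, adipocyte or B and plasma cell marker was. Macrophage markers were also lowest there in summed signal (4.32, against 5.08 or more in the others), as were fibroblast markers (4.72, against 5.13 or more). Epithelial (12.9), T and NK cell (5.75), B and plasma cell (3.76) and adipocyte (7.93) markers were highest there in that measure. By mean log2 signal, T and NK cell markers were instead lowest in that cow (-1.55), with 6 of the 14 lowest and 2 highest there. Adipocyte markers were then at -1.88, with CONT cow 4 highest. Macrophage, fibroblast, epithelial and B and plasma cell markers kept their place. The part of cell content in the low chemokine signals of this cow was not tested.

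Most neutrophil markers had a higher mean in REST. Of the 7 members, 6 had a lower mean there, but 4 without REST cow 2 and likewise 4 with slide as a block. Of the 29 markers, 19 had a higher and 10 a lower mean in REST, with a median difference of 0.17. Without REST cow 2, 20 were higher and 9 lower, with a median of 0.36. Over all named genes 5500 were higher and 7139 lower. None passed adjustment. At an unadjusted p under 0.05, TREM1, a receptor that amplifies neutrophil activation, was higher by 0.60 (SE 0.24), and CATHL2, a cathelicidin precursor of the granules, by 0.91 (SE 0.41), and both are named after their values were seen. BPI, a granule protein that binds LPS, had the largest positive difference (1.12, SE 0.67) and NCF4, a subunit of the oxidase, the most negative (-0.31, SE 0.60) among markers well above background in all cows. NCF4 stood at 0.04 without REST cow 2.

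Of the other CXC chemokines and receptors, 16 of 18 listed genes were measured, 7 higher and 9 lower in REST, with a median of -0.19. CXCL1, the remaining measured ELR chemokine of the cluster, resembled CXCL2 and CXCL5 in its lowest cows: REST cow 2 was at -2.95 and REST cow 5 at -1.62, and CONT cows were between -1.28 and 1.19. Its difference was -0.93 (SE 0.55), the most negative of the list among genes well above background in all cows, and -0.53 (SE 0.45) without REST cow 2. CXCL14, made by epithelium and fibroblasts, had the largest positive one among genes well above background in all cows (0.42, SE 0.45). At an unadjusted p under 0.05, and named after their values were seen, ACKR1, a scavenger receptor of venular endothelium, was higher (0.59, SE 0.26). CXCL16, a transmembrane chemokine, was lower (-0.75, SE 0.34, and -0.49 without REST cow 2), and so was ACKR3, the atypical receptor also called CXCR7 (-0.85, SE 0.33). None passed adjustment. ACKR1 was well above background in 11 cows and ACKR3 in 7.

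Of 32 listed genes of LPS sensing, NF-kB and the interleukin-1, tumour necrosis factor and interleukin-17 pathways, which switch on these chemokines, 30 were measured, 14 higher and 16 lower in REST, with a median of -0.02. Without REST cow 2, 18 were higher and 12 lower, with a median of 0.07. TNF had the most negative difference among those well above background in all cows (-0.90, SE 0.52), with REST cow 2 at -2.83, and -0.55 (SE 0.46) without that cow. ZFP36, which destabilises cytokine and chemokine mRNA, had the largest positive one (0.80, SE 0.44, and 1.19, SE 0.30, without REST cow 2). IL1A was the 1 gene at an unadjusted p under 0.05 (-0.78, SE 0.30). It is named after its value was seen and was well above background in 8 cows. IL1B, a main inducer of CXCL8, differed by -0.04 (SE 0.31, and 0.11 without REST cow 2) and TLR4, the LPS receptor, by -0.29 (SE 0.20, and -0.16 without it), both likewise named after their values were seen.

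Of the other colony stimulating factors and their receptors, 7 of 10 were measured, 4 higher and 3 lower, none at an unadjusted p under 0.05. CSF2RB, the shared receptor chain for CSF2, differed by 0.60 (SE 0.40) and CSF1R, the macrophage growth factor receptor, by -0.35 (SE 0.39). These were 0.39 and -0.004 without REST cow 2. Among genes that carry the signal below CXCR1, CXCR2 and CSF3R, 18 of 21 were measured, 12 higher and 6 lower (14 and 4 without REST cow 2), none at that level, with the kinase FGR highest among those well above background in all cows (0.48, SE 0.39, and 0.24 without REST cow 2). Among genes of neutrophil adhesion and migration, 15 of 17 were measured, 7 higher and 8 lower, none at that level, with a median of -0.02 (0.22 without REST cow 2), and among those well above background in all cows they ran from SELPLG, the selectin ligand, at 0.46 (SE 0.58) to ICAM1, the integrin ligand, at -0.23 (SE 0.55). They stood at 0.88 and 0.001 without REST cow 2, and 11 of the 15 were then higher.

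Markers of the other cells in the biopsy were counted beside these genes, and their part in the members' values was not tested. Macrophage markers had 5 of 10 higher in REST (8 without REST cow 2), T and NK cell markers 6 of 14 (8 without it), B and plasma cell markers 4 of 6 and adipocyte markers 5 of 6. Epithelial markers had 12 of 14 higher (11 without REST cow 2), endothelial markers 9 of 9, myoepithelial markers 1 of 8 (2 without it) and fibroblast markers 1 of 8. CONT cow 6 had the lowest log2 summed signal of the endothelial (2.59), adipocyte (3.02), epithelial (10.8) and B and plasma cell (2.12) lists. Without it 9 of 14 epithelial and 8 of 9 endothelial markers were higher, and their median differences went from 0.28 to 0.07 and from 0.37 to 0.06. B and plasma cell markers were then 3 of 6 higher, with a median going from 0.18 to -0.03, and adipocyte markers 4 of 6. Among genes well above background in all cows, the highest and lowest differences were MSR1 (1.12) and C1QA (-0.40) for macrophages, CD3D (0.60) and KLRK1 (-0.38) for T and NK cells, and MZB1 (0.24) and JCHAIN (-0.13) for B and plasma cells. They were GLYCAM1 (0.50) and KRT18 (-0.49) for epithelium, KRT14 (0.01) and OXTR (-0.50) for myoepithelium, and VWF (0.79) and EMCN (0.19) for endothelium. For adipocytes they were FABP4 (1.21) and ADIPOR2 (0.04), and for fibroblasts PDGFRA (0.04) and LUM. Without REST cow 2, MSR1 was 0.79, C1QA -0.11, KLRK1 -0.11, MZB1 0.10, JCHAIN -0.28, KRT18 -0.16, KRT14 0.17 and PDGFRA 0.26. CONT cow 6 was the lowest cow for GLYCAM1 (6.44, CONT median 8.64) and FABP4 (2.87, CONT median 6.36). LUM, a collagen-binding proteoglycan of fibroblasts, differed by -0.84 (SE 0.24), the only listed gene at an unadjusted p under 0.01, and none passed adjustment.

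The genes whose levels followed a member most closely were sought among 8998 genes well above background in all cows, for the 3 members that were too. CXCL8 was most like PSMD4, a proteasome subunit (r = 0.953), DDX19B, an RNA helicase (0.931), and SH3BGRL3 (0.925), and these r were 0.951, 0.920 and 0.910 without REST cow 2. CXCR2 was most like METTL21A (0.969), TSACC (0.958) and ULK1 (0.953), with values of 0.969, 0.955 and 0.954 without it. CXCL3 was most like TMEM254 (0.873), RPL15 (0.870) and JSP.1 (0.840), an MHC class I gene, and those r were 0.618, 0.389 and -0.341 without REST cow 2. These r are the highest of many over 12 cows and are a description.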

How the data were processed

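Biopsy RNA (100 ng labelled with Cy3) was hybridised to 12 one-colour Agilent bovine arrays, 6 CONT and 6 REST, 1 cow each. The deposited intensity values are the spot signals that the authors obtained with Feature Extraction (11.0.1.1), background-subtracted and detrended, with no normalisation between arrays; the deposited matrix holds the same intensities. The array annotation refers to UMD 3.1. Its build differs from that of the RefSeq table, so that no positions are given.

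Control spots were removed, outlier spots set to missing, spots of a probe averaged and the array's 75th percentile subtracted on the log2 scale. Accessions named 26832 of 43653 probes, for 12639 genes. CSF3R had no match. The brightest probe stands for a gene.

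REST and CONT were compared over all probes with limma 3.58.1 (R 4.3.3; lmFit, eBayes) and Benjamini-Hochberg adjustment at 0.05. Holm adjustment stood in for the Westfall-Young correction of the study, which was not run. Exact permutation tests (two-sided) enumerated 924 splits, with 0.00216 as the smallest p. Correlations had 100000 permutations (scipy 1.17.1); they were first meant as a description, and their p-values were added later. The script was tested on simulated data.

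A fold is given as "at least" where the lowest cow was not well above background, against the dimmest signal that was. The members and 14 gene lists were chosen with earlier results of these data known. Named are all members, and in each list the highest and lowest difference among genes well above background in 12 cows and any unadjusted p under 0.01; for likeness, the 3 genes of highest r. Other genes are named after their values were seen. One gene that this rule names is not reported here. The number of arrays limits the precision.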

Additional observations from a re-analysis of the deposited data

Results flagged for a closer look

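CXCL3 in REST cow 2 was far from the other 5 REST cows. Its level was 3.22 (log2, relative to the array's 75th percentile) and the others were at 5.50 or more, so that the gap made up 0.676 of the range of the group. This was 1 of 20 groups of 6 cows examined at the member probes, and chance alone gives about 1 in 20. The same cow was the lowest for CXCL2, CXCL5, CXCL8 and CXCR1, where the gap to the next cow was a smaller part of the range.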

How the results depend on the processing

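No probe of the array passed adjustment under any of 22 other settings (among them Holm adjustment, quantile normalisation, median scaling, normexp background correction, a filter on dim probes, slide as a block and leaving out each cow), and between 377 and 1739 probes had an unadjusted p under 0.05. For the members, 150 values kept their direction and 19 changed sign. Within-slide values had no p-value and means over a gene's probes no adjusted p, so that only direction was compared there. The lowest adjusted p of a member was 0.945 in any setting. With slide as a block, CXCL3 changed to 0.063 and CXCL8 to 0.202. With slide as a block and without REST cow 2, a setting chosen after seeing the data, CXCL2 was 0.224, CXCL3 0.365, CXCL5 0.008 and CXCL8 0.359. Within slide 1, CXCL2 was 0.731, CXCL5 0.683 and CXCR1 1.04. Within slide 2, CXCR2 was 0.04. Within slide 3, CXCL2 was 1.049, CXCL3 0.254, CXCL5 0.598, CXCL8 2.45 and CXCR1 0.834. Leaving out 1 cow at a time gave -0.295 to 0.380 for CXCL3 and -0.705 to 0.264 for CXCL8, with changes of sign without REST cow 2 for both and without CONT cow 4 or REST cow 5 for CXCL8. The ranges were -1.547 to -0.442 for CXCL2, -1.339 to -0.343 for CXCL5, -1.40 to -0.153 for CXCR1, -0.447 to -0.013 for CXCR2 and 0.62 to 1.237 for CSF3, whose unadjusted p was 0.0422 in limma without CONT cow 1. The cause was not tested.

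Dim signals limit CXCL2, CXCL5, CXCR1 and CSF3, and normexp, which shrinks differences near background, gave -0.309, -0.384, -0.42 and 0.237 for them. The filter on dim probes removed CSF3. Spreads and list values without REST cow 2 or CONT cow 6, and the summed neutrophil signal without LTF, were also added after seeing the data. No paired analysis was possible because the labels give no numbers that match cows across the diets.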
